A study of Mus musculus with 12 samples.

Results

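The jejunal epithelium of POR-null mice was compared with that of wild-type mice on the same control diet. The name POR-null stands for the loss of cytochrome P450 oxidoreductase (POR). The comparison used 6 of the study's 12 Affymetrix 430A arrays, chosen by their titles, with 3 arrays per genotype. Each array measured RNA from a pool of 3 mice, so 9 mice stood behind each genotype and single mice are not seen. All mice were males of the C57BL/6 strain, 6 to 8 weeks old, and had eaten a soya-free powdered RM3 diet for 14 days. The control groups stayed on it for the last 24 h. The other 6 arrays came from the same genotypes given the plant flavonol quercetin in the diet for those 24 h, at 7 mg per mouse and a content of 6.2 g per kg. They entered the estimate of the spread, and their values are set beside the control-diet values. The jejunum was the middle part of the small intestine, and its epithelium was scraped off before RNA was taken. The tissues that lack POR, and the construct behind the deletion, are not given in the sources used here. Whether the jejunal epithelium of these mice lacks POR is therefore not known. Por, the targeted gene, was not analysed here, and the labels of genotype therefore have no check on it.

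POR sits in the endoplasmic reticulum and passes electrons from NADPH to the microsomal cytochromes P450. It also serves heme oxygenase, cytochrome b5 and several steps of cholesterol synthesis, among them squalene epoxidation by Sqle and lanosterol demethylation by Cyp51. Genes of cholesterol synthesis are switched on together by the transcription factor SREBP-2, the product of Srebf2, when sterols in the endoplasmic reticulum run low. SREBP-2 binds sterol regulatory elements beside sites for nuclear factor Y, whose core motif is CCAAT. The small intestine makes much of the body's cholesterol and takes up cholesterol from food and bile.

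Genes of sterol synthesis had a list median well above that of all genes (described after the arrays), and the regions before their start sites are shown for that reason. RefSeq promoters of build GRCm38.p6 were found for 14 of the 17 measured genes of the pathway. The 250 bases before each start were searched on both strands for CCAAT and for TCACNCCAC, letters of the sterol regulatory element, and a gene with several promoters counted if any of them held the motif. CCAAT stood in 14 of the 14 (100%), against 39.9% of the 9887 measured genes with a promoter and 33.8% of all 32851 promoters. The sterol element stood in 1 of the 14 (7.14%), against 1.29% and 1.05%. Of the genes higher in POR-null mice at an unadjusted p under 0.05, 2.95% of the 305 with a promoter held it, and of those lower, 0.635% of 315. Among genes whose pools did not overlap it stood in 0.954% of the 524 higher and 0.658% of the 456 lower ones, both below the share of measured genes. A match is a description of letters, not of binding. Shown are Hmgcs1 (chr13:119690101-119690350, plus strand), the only one of the 14 with both motifs, Idi1 (chr13:8885356-8885605, plus strand), Mvk (chr5:114444019-114444268, plus strand), with the most CCAAT matches, and Cyp51 (chr5:4104698-4104947, minus strand), with 1. Each runs 5′ to 3′ toward the start site, and capitals mark CCAAT, its complement ATTGG and, in Hmgcs1, TCACCCCAC.
Hmgcs1: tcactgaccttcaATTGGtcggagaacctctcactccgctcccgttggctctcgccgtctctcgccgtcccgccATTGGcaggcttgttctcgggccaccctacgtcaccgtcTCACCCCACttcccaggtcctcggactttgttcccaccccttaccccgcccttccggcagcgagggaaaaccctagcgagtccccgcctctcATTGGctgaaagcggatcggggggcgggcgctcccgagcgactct
Idi1: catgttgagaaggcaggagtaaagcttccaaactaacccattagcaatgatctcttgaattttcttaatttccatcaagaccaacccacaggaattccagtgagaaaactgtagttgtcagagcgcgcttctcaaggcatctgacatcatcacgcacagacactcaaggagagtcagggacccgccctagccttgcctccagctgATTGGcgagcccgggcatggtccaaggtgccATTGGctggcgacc
Mvk: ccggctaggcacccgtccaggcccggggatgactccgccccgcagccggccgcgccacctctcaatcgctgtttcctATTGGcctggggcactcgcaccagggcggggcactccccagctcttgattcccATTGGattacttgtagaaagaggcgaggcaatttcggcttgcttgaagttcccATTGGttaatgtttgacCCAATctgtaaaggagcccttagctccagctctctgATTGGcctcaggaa
Cyp51: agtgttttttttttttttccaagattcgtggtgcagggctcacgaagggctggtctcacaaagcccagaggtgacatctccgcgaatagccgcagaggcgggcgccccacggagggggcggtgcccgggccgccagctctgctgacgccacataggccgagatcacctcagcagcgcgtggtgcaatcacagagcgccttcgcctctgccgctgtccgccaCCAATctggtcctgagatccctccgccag
The sterol element of Hmgcs1 ended 129 bases before the start. The CCAAT match nearest to the start lay 41 to 45 bases before it in Hmgcs1, 10 to 14 in Idi1 and in Mvk, and 25 to 29 in Cyp51.

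The 6 arrays were alike in scale, with medians of 5.94 to 6.00, and were used as deposited. Correlations across probe sets were 0.991 to 0.995 within a genotype and 0.991 to 0.994 between genotypes. Intestinal genes were near the top of every array: Vil1, Krt20 and Apoa1 stood at percentiles 99.6 to 100 of the probe sets, against 34 to 67.1 for the liver genes Alb, Ttr, Ahsg and Cyp7a1. POR-null pool 3 lay more than 1 log2 unit from the mean of the other pools of its group at 56 probe sets (41 of them lower), as did wild-type pool 1 at 56, against 32 to 43 in the other 4 control pools. Smooth muscle genes, from the muscle layer under the epithelium, were high in wild-type pool 3 and POR-null pool 1 (centred means 0.74 and 0.49, against -0.26 to -0.16 in the other 4 control pools). A segment score, the mean of distal minus proximal intestinal genes, was -0.80, -0.58 and 0.06 in wild-type pools 1 to 3 and 0.12, 0.12 and 0.21 in POR-null pools 1 to 3. It was thus higher in every POR-null pool than in every wild-type pool, and values with it as a covariate are given beside lists described below. Fewer cells of a type and less RNA per cell cannot be told apart in such pools.

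No single gene separated the genotypes past the test. By limma with Benjamini-Hochberg adjustment over 22626 probe sets, 0 (0%) had an adjusted p under 0.05, and the smallest adjusted p was 0.226. At an unadjusted p under 0.05 there were 1379 probe sets (6.09%), with POR-null mice higher at 734 (3.24%) and lower at 645 (2.85%). All p-values measure the spread between pools. With 1 probe set for each of 12393 genes, the 3 POR-null pools lay wholly above the 3 wild-type pools for 653 genes (5.27%) and wholly below for 545 (4.4%). Most such differences were small: the median was 0.19 log2 units among the higher genes and -0.19 among the lower, and 17 and 21 genes exceeded 0.5 in size. Counts of higher and lower separated probe sets depended on scaling, with 1166 (5.15%) and 970 (4.29%) as deposited and 963 and 1201 after each array was centred on its median.

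The early, mevalonate part of sterol synthesis was higher in POR-null pools 1 and 2, while pool 3 lay inside the wild-type range or close to it. All values by pool are log2 levels in the order of pools 1, 2 and 3. Apart from the percentiles of intestinal and liver genes above, levels are not compared between probe sets. Hmgcs1, which makes the HMG-CoA that feeds the pathway, stood at 8.86, 9.71 and 9.31 in wild-type and at 11.00, 10.80 and 9.29 in POR-null pools. POR-null pools 1 and 2 were above every wild-type pool, and pool 3 was inside the wild-type range, so the groups overlapped. The difference was 1.07 ± 0.32 (SE of the model, 2.10-fold), and 3 further probe sets of the gene gave 1.08 to 1.25.

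The kinases that phosphorylate mevalonate followed the same order of pools. Mvk, mevalonate kinase, stood at 6.86, 7.16 and 6.69 in wild-type and 7.80, 7.75 and 6.66 in POR-null pools (0.50 ± 0.23). Its second probe set gave 0.16. Pmvk, which adds the next phosphate, stood at 6.04, 6.03 and 5.92 against 6.97, 6.84 and 6.14 (0.65 ± 0.17), and its groups did not overlap, with POR-null pool 3 the lowest of its group by far. The same held for Mvd, at 6.37, 6.77 and 6.59 against 7.39, 7.40 and 6.83 (0.63 ± 0.16), but by its second probe set (0.63) the groups overlapped. Mvd is the decarboxylase that yields isopentenyl diphosphate. Idi1, the isomerase of that product, and Fdps, which joins the units to farnesyl diphosphate, overlapped again. Idi1 stood at 6.70, 7.28 and 7.17 against 8.52, 8.29 and 6.81 (0.82 ± 0.30). Fdps stood at 7.36, 8.15 and 7.46 against 9.34, 9.24 and 7.67 (1.09 ± 0.32, 2.13-fold), whereas its second probe set differed by -0.03. Over the 6 measured mevalonate genes the differences ran from 0.50 to 1.09.

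From squalene to cholesterol, Fdft1, Sqle and Cyp51 carried the widest differences. Fdft1, squalene synthase, stood at 6.51, 7.21 and 6.45 in wild-type and 8.78, 8.61 and 6.90 in POR-null pools (1.37 ± 0.36, 2.59-fold). Sqle, squalene epoxidase and a partner of POR, stood at 6.74, 7.84 and 7.10 against 9.37, 9.02 and 7.31 (1.34 ± 0.39, 2.53-fold). Cyp51, the lanosterol demethylase and a P450 served by POR, stood at 5.42, 6.95 and 6.43 against 8.42, 8.07 and 5.54 (1.08 ± 0.54, 2.11-fold). In all 3 genes POR-null pools 1 and 2 exceeded every wild-type pool by more than 1 log2 unit and pool 3 lay inside the wild-type range. Probe sets did not agree in size: the other 3 of Fdft1 gave 1.41, 0.23 and -0.02, and the other 2 of Cyp51 gave 0.55 and 0.10.

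The other measured enzymes of this part differed less. Msmo1, the methyl oxidase after Cyp51, stood at 8.70, 9.78 and 8.82 against 10.39, 10.44 and 8.59 (0.71 ± 0.38), with pool 3 below all wild-type pools. Nsdhl, which removes the methyl groups with it, differed by 0.59 ± 0.20 and the delta-14 reductase Tm7sf2 by 0.55 ± 0.18. Dhcr7, the last reductase of one branch, stood at 7.54, 7.73 and 7.78 against 8.48, 8.24 and 7.80 (0.49 ± 0.14). Its groups did not overlap, by the narrowest margin between wild-type pool 3 and POR-null pool 3. Hsd17b7, a ketosteroid reductase, was higher by 0.36 ± 0.11 and also separated, but by its second probe set (0.22) the groups overlapped. Lss, which closes the ring of lanosterol, was higher by 0.36 ± 0.10 and separated (0.49 and 0.16 by its other probe sets). The isomerase Ebp (0.06 ± 0.12) and the desaturase Sc5d (-0.07 ± 0.23) lay near 0.

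**Figure D1:**
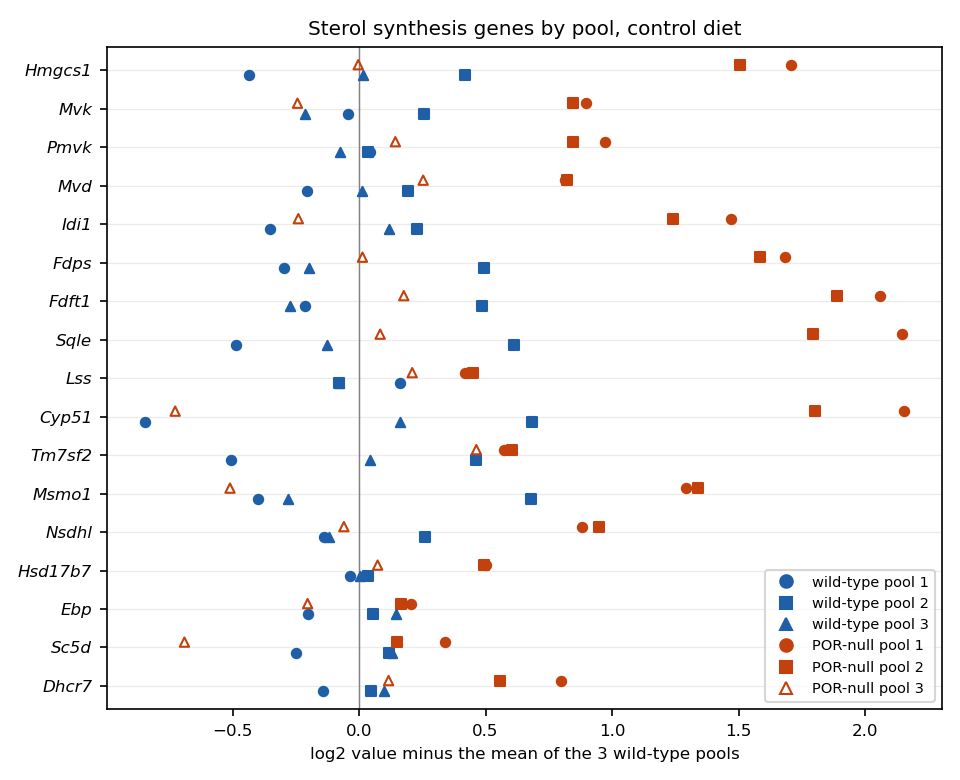
Log2 values of the 17 measured sterol synthesis genes in each control-diet pool, drawn as the distance from the mean of the 3 wild-type pools (x axis, log2 units), with genes in pathway order from top to bottom. Filled orange symbols are POR-null pools 1 and 2, the open triangle is POR-null pool 3 and blue symbols are the wild-type pools; pools 1 and 2 lie right of the wild-type pools in all 17 genes and pool 3 inside their range in 9.

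Taken as a group, 16 of the 17 measured sterol synthesis genes were above 0, with a median of 0.63 (1.55-fold), against a median of 0.01 over all genes. At an unadjusted p under 0.05, 13 of the 17 were higher (76.5%), against 3.14% of all genes, and 5 of the 17 separated the genotypes (29.4%), against 5.27%. None of the 17 had an adjusted p under 0.05 by limma with Benjamini-Hochberg adjustment. Without any 1 of the 6 pools the median was 0.49 to 0.91.

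POR-null pool 3 was below both other POR-null pools in 17 of the 17 (100%), against 30.3% of all genes. Set against the wild-type pools, it lay above their range in 5, inside it in 9 and below it in 3. The pathway means, each gene centred over the 12 arrays, were -0.70, -0.15 and -0.48 in wild-type and 0.67, 0.56 and -0.51 in POR-null pools. Of the 8 genes named for lying farthest below pools 1 and 2 in pool 3, 6 were sterol synthesis genes. Among those farthest above were the cholesterol exporter Abca1, the ileal bile acid binding protein Fabp6 and Reg1, a secreted protein of regenerating epithelium.

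Without POR-null pool 3, 17 of the 17 pathway genes separated the genotypes (100%, against 9.39% of all genes), and the median was 0.91 (1.88-fold). By limma with Benjamini-Hochberg adjustment 23 probe sets were then higher (0.102%) and 1 lower (0.00442%) at an adjusted p under 0.05. Of these 24, 16 belonged to 10 sterol synthesis genes. They included Fdft1 (1.97), Sqle (1.97), Cyp51 (1.98), Fdps (1.63), Hmgcs1 (1.61), Idi1 (1.35) and Nsdhl (0.92). Outside the pathway they included Scd2 (2.16), Osr2 (0.68), the fatty acyl elongation enzyme Hsd17b12 (0.57), the alanyl-tRNA synthetase Aars (0.56) and, as the one lower gene, the lysosomal protease Ctsl (-0.75). The pool was singled out by its sterol values, so the counts for sterol genes without it are not independent evidence for them.

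Regulators and other targets of SREBP-2 had a median nearer 0 than the enzymes of the pathway. Srebf2, which encodes SREBP-2, stood at 7.84, 7.82 and 7.94 in wild-type and 8.40, 8.26 and 8.07 in POR-null pools (0.38 ± 0.10, and 0.56 by a second probe set). By the first probe set the groups did not overlap, and POR-null pool 3 was the lowest of its group. By the second they overlapped, with pool 3 at 7.06, below the wild-type pools at 7.20, 7.15 and 7.24. Without pool 3 the second probe set gave 0.91 (adjusted p = 0.000865 by limma with Benjamini-Hochberg adjustment). Srebf1, the related factor for fatty acid genes, stood at 8.60, 8.43 and 8.73 against 8.38, 8.91 and 9.09 (0.21 ± 0.15), with pool 3 the highest. Among sterol-responsive genes, the cholesterol carrier Stard4 (0.32 ± 0.13) and the desaturase Fads2 (0.41 ± 0.16, separated) were higher, and the lysosomal cholesterol exporter Npc1 differed by 0.13 ± 0.13. The 13 measured members had a median of 0.05, with 9 above 0. At an unadjusted p under 0.05, 3 were higher (23.1%, against 3.14% of all genes), and 2 separated (15.4%, against 5.27%).

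Genes that hand electrons to P450s beside POR, or take them from it, lay closer to 0 than the sterol enzymes. The 10 measured members ran from -0.16 to 0.17 with a median of -0.03. An unadjusted p under 0.05 was found in 0 (3.14% of all genes were higher and 3.04% lower), and 0 separated the genotypes (5.27% and 4.4%). These shares are few genes in a list of 10. Once the segment score was a covariate the median was 0.14, so its direction was not kept. Cytochrome b5 (Cyb5a, -0.05 ± 0.14), its mitochondrial form Cyb5b (0.17 ± 0.14) and the b5 reductases Cyb5r3 (0.08 ± 0.15, and 0.44 with that covariate) and Cyb5r1 (-0.10 ± 0.12) were within these limits. So were ferredoxin Fdx1 (-0.16 ± 0.11), heme oxygenase Hmox1 (0.09 ± 0.08) and the P450-binding protein Pgrmc1 (0.05 ± 0.09).

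Sterol exporters ran opposite to sterol synthesis across the POR-null pools. Abca1, which loads cholesterol onto apolipoprotein A-I, stood at 8.22, 6.87 and 8.10 in wild-type and 5.80, 7.55 and 8.14 in POR-null pools (-0.57 ± 0.45), and its other 2 probe sets gave 0.01 and 0.02. Abcg5, one of the paired exporters that return sterols to the gut lumen, stood at 11.49, 10.76 and 10.79 against 10.19, 10.76 and 11.36 (-0.24 ± 0.24). Its partner Abcg8 stood at 9.25, 8.67 and 8.62 against 8.26, 8.60 and 9.21 (-0.16 ± 0.20). In all 3 genes POR-null pool 1 was the lowest of the 6 pools and the genotypes overlapped. Abcg5 and Abcg8 were picked after their values were seen. POR-null pool 3 was above the mean of pools 1 and 2 in all 8 measured genes of sterol absorption and efflux, whose median was -0.14. Without POR-null pool 1 that median was 0.04, and 0.03 once the segment score was a covariate, so the direction was not kept.

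Among fatty acid synthesis genes 1 stood out. Scd2, a stearoyl-CoA desaturase that makes monounsaturated fatty acids, stood at 4.99, 5.26 and 5.78 in wild-type and 7.88, 7.13 and 6.33 in POR-null pools (1.77 ± 0.36, 3.41-fold). The groups did not overlap, and POR-null pool 3 was the lowest of its group, as in the sterol genes. Its other 2 probe sets gave 0.83 and 0.29. Acss2, which makes acetyl-CoA from acetate, was higher by 0.34 ± 0.10 and separated. Mlxipl, a carbohydrate-responsive transcription factor, was lower (-0.37 ± 0.10) and separated, and Gpam, which starts glycerolipid synthesis, differed by -0.35 ± 0.14. Over the 16 measured genes the median was 0.04 (-0.03 once the segment score was a covariate). At an unadjusted p under 0.05, 2 were higher (12.5%, against 3.14% of all genes) and 2 lower (12.5%, against 3.04%).

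The lowest p of the whole comparison belonged to Acadl, the long-chain acyl-CoA dehydrogenase of mitochondrial fatty acid oxidation. It stood at 9.79, 9.65 and 9.44 in wild-type and 8.51, 8.95 and 8.39 in POR-null pools (-1.01 ± 0.15, 2.01-fold lower; adjusted p = 0.226 by limma with Benjamini-Hochberg adjustment). Every POR-null pool lay below every wild-type pool by at least 0.49. The second probe set of Acadl differed by only -0.02, so the measurement rests on 1 probe set. Without POR-null pool 2 it was the 1 probe set called (-1.18, adjusted p = 0.0396 by limma with Benjamini-Hochberg adjustment), and over the alternatives it stayed between -1.18 and -0.51. Other genes of the pathway differed less: the carnitine carrier Slc25a20 by -0.26 ± 0.09, the thioesterase Acot1 by -0.22 ± 0.08 and the isomerase Eci2 by -0.19 ± 0.09. Of the 25 measured, 20 were below 0 with a median of -0.16, and 4 separated as lower (16%, against 4.4% of all genes). Once the segment score was a covariate the median was -0.08.

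Oxidative phosphorylation genes were lower in POR-null mice by small amounts, nearly throughout. Of the 49 measured, 46 were below 0 and the median was -0.11 (1.08-fold), against 0.01 over all genes. The POR-null pools lay wholly below the wild-type pools in 20 (40.8%, against 4.4% of all genes), and 11 (22.4%) had an unadjusted p under 0.05, against 3.04%. The list means by pool were 0.07, 0.16 and 0.12 in wild-type and -0.04, 0.03 and -0.00 in POR-null pools. Unlike the sterol genes, POR-null pool 3 sat between the other 2 of its group. The median stayed between -0.13 and -0.09 without any 1 of the 6 pools, and was -0.12 once the segment score was a covariate.

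The members named from this list are 3 subunits of complex I, the NADH dehydrogenase, and 1 of complex II. Ndufb3 stood at 9.13, 9.31 and 9.42 against 8.85, 9.03 and 8.99 (-0.33 ± 0.09), Ndufb7 differed by -0.28 ± 0.10 and Ndufa5 by -0.26 ± 0.08. Sdhd, the membrane anchor of complex II, stood at 10.91, 10.88 and 10.82 against 10.62, 10.53 and 10.53 (-0.31 ± 0.10). All 4 separated. The following 5 genes, of other mitochondrial functions, come from the 15 lower genes with the smallest p and were put together by hand, not from a list. Idh3b, a subunit of the citric acid cycle's isocitrate dehydrogenase, stood at 8.39, 8.41 and 8.62 against 8.07, 8.14 and 8.08 (-0.38 ± 0.09). By its second probe set (-0.16) the groups overlapped. Dlat, the acetyltransferase of the pyruvate dehydrogenase complex, differed by -0.54 ± 0.13, and its other 2 probe sets by -0.40 and -0.14. Coq7, a hydroxylase of ubiquinone synthesis, stood at 7.29, 7.38 and 7.40 against 6.99, 7.02 and 6.97 (-0.36 ± 0.07). Mrps15, of the mitochondrial ribosome, differed by -0.42 ± 0.10 and Rmdn3, a tether between mitochondria and the endoplasmic reticulum, by -0.62 ± 0.15.

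The 15 separated genes with the smallest p in each direction were named by that rule, so their separation is no finding. The peptidases among them are described first, grouped by hand and not from a list. Mep1a, the alpha subunit of the brush border protease meprin A, stood at 10.04, 10.51 and 10.59 in wild-type and 11.09, 11.19 and 11.06 in POR-null pools (0.73 ± 0.12, 1.66-fold). Prss30, a serine protease, stood at 9.28, 9.54 and 9.32 against 9.92, 9.97 and 9.83 (0.53 ± 0.10). The lysosomal protease Lgmn stood at 6.70, 7.15 and 7.06 against 7.82, 8.02 and 7.41 (0.78 ± 0.18). Ctsc, the lysosomal protease that activates granzymes, was higher by 0.44 ± 0.10. Not all lysosomal proteases shared the direction. Ctsl stood at 7.25, 7.24 and 6.92 against 6.27, 6.51 and 6.91 (-0.57 ± 0.14), with pool 3 just below the lowest wild-type pool, and Ctsh was lower (-0.30 ± 0.10). The median of the 14 measured lysosomal genes was -0.00.

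Other genes named by this rule belong to varied functions. Slc2a9, a urate transporter, stood at 6.73, 6.92 and 6.83 against 7.39, 7.66 and 7.29 (0.62 ± 0.12). The glycyl-tRNA synthetase Gars (0.45 ± 0.11), the sulfurtransferase Mpst (0.49 ± 0.12) and the galanin receptor Galr2 (0.41 ± 0.09) were higher as well. In the lower direction stood Clps, the colipase that anchors pancreatic lipase to fat droplets, at 8.30, 8.23 and 8.37 against 7.93, 7.74 and 7.74 (-0.50 ± 0.10, and -0.73 by a second probe set). The 11 measured pancreatic acinar genes, of which Clps is 1, had a median of 0.03. Rpe, an epimerase of the pentose phosphate pathway, was lower (-0.53 ± 0.09), but its other 2 probe sets gave -0.22 and 0.08. The potassium channel Kcnk1 (-0.34 ± 0.08), the deubiquitinase Usp33 (-0.54 ± 0.13) and the methyl-CpG binding protein Mbd1 (-0.31 ± 0.07) were lower too. The second probe set of Kcnk1 gave 0.05 and the other 4 of Mbd1 gave -0.00 to 0.11.

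**Figure D2:**
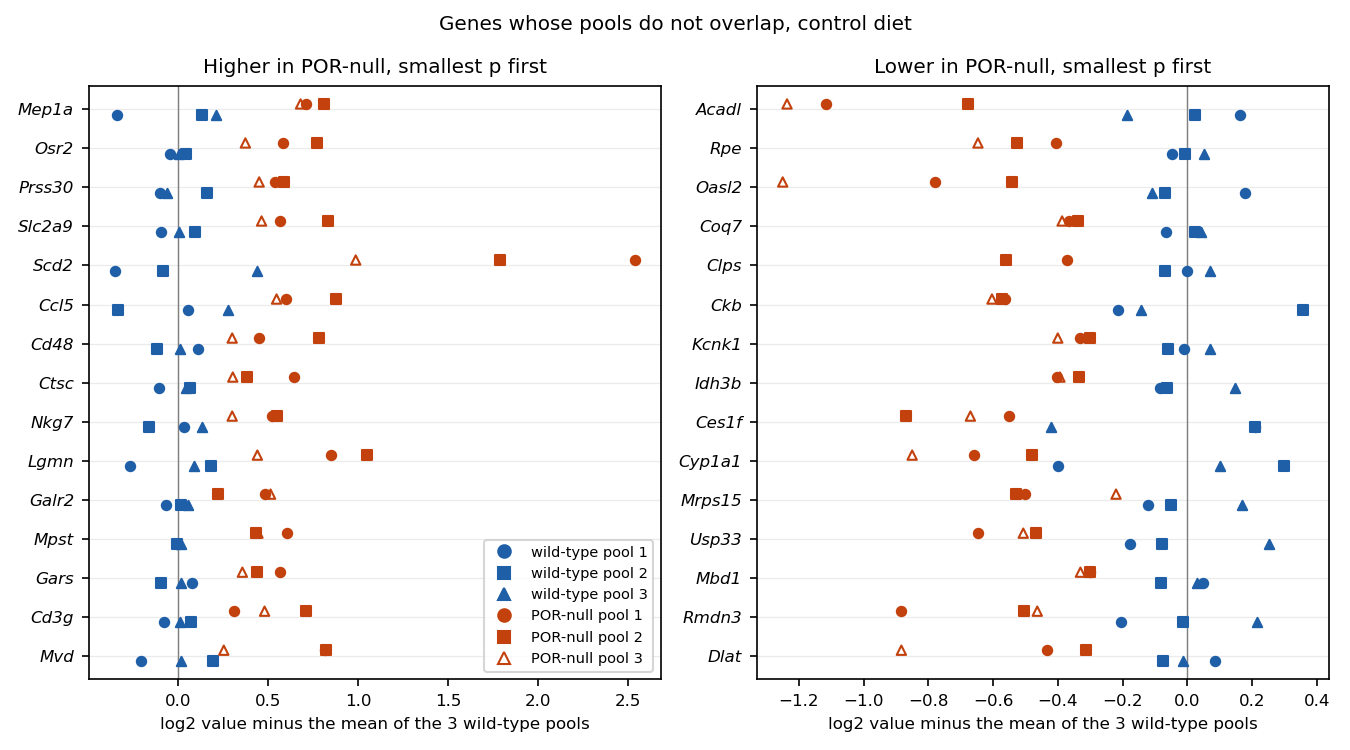
The 15 higher (left) and 15 lower (right) genes with the smallest p among those whose control-diet pools do not overlap, each pool drawn as its log2 distance from the mean of the 3 wild-type pools (x axis). Blue symbols are wild-type and orange symbols POR-null pools, with POR-null pool 3 open; Scd2 spreads widest over the POR-null pools, while those of Coq7 and Kcnk1 lie close together.

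T cell and intraepithelial lymphocyte genes were higher in the POR-null pools. All 17 measured members lay above 0, with a median of 0.18, and 7 separated (41.2%, against 5.27% of all genes), while 8 had an unadjusted p under 0.05 (47.1%, against 3.14%). Ccl5, a chemokine that cytotoxic T cells store, stood at 9.65, 9.26 and 9.87 in wild-type and 10.19, 10.47 and 10.14 in POR-null pools (0.67 ± 0.15, 1.59-fold). Nkg7, of cytotoxic granules, stood at 6.94, 6.75 and 7.04 against 7.43, 7.46 and 7.21 (0.46 ± 0.10). Cd3g, a chain of the T cell receptor complex, stood at 6.68, 6.83 and 6.77 against 7.07, 7.47 and 7.24 (0.50 ± 0.12). Granzyme A, Gzma, stood at 9.96, 9.99 and 9.79 against 10.28, 10.58 and 10.22 (0.45 ± 0.12), and the lymphocyte surface protein Cd48 was higher by 0.51 ± 0.11. POR-null pool 2 was the highest of the 6 pools in each of these 5 genes. The median was 0.18 to 0.28 without any 1 of the 6 pools and 0.18 once the segment score was a covariate. Among lists of other immune cells, 0 of 11 measured macrophage and dendritic and 0 of 5 B and plasma cell genes separated. Over all genes 5.27% separated as higher and 4.4% as lower, which is few genes in lists of this size. The B and plasma cell median was 0.16, near that of T cells, with 4 of 5 above 0. It ran from -0.10 to 0.32 when 1 array was left out. The macrophage and dendritic median was 0.01.

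The distal and proximal genes that make up the segment score follow it by construction, so their values describe the score. Of the 11 measured distal genes 10 were above 0, with a median of 0.28, and 3 separated (27.3%, against 5.27% of all genes). All 13 measured proximal genes lay below 0, with a median of -0.11, and 2 separated (15.4%, against 4.4%). With the score as a covariate, which holds these same genes, the medians were -0.01 and 0.02. Osr2, a transcription factor of the distal list, stood at 7.04, 7.13 and 7.09 in wild-type and 7.67, 7.86 and 7.46 in POR-null pools (0.58 ± 0.11). Fabp6 stood at 5.83, 6.32 and 10.72 against 8.73, 8.30 and 10.33 (1.50 ± 1.10), with wild-type pool 3 the highest of all pools. Its difference was -1.55 once the segment score, of which it is a member, was a covariate. Cubn, the receptor for intrinsic factor with vitamin B12, differed by 0.51 ± 0.19, its partner Amn by 0.28 ± 0.10, and the gut hormone Pyy by 0.53 ± 0.21. Neurotensin, Nts, an enteroendocrine gene outside the distal list, differed by 0.47 ± 0.15. Enteroendocrine genes as a list were divided, with 6 of 12 measured above 0, 6 below and a median of 0.04. The hormone genes Cck (-0.48 ± 0.17) and Gip (-0.31 ± 0.15) went the other way from Nts and Pyy. Ada, adenosine deaminase, of the proximal list, stood at 12.10, 12.98 and 12.72 against 11.70, 12.11 and 12.24 (-0.58 ± 0.18). Apoc3, an apolipoprotein, differed by -0.41 ± 0.16, and Ckb, brain-type creatine kinase, by -0.58 ± 0.12. The distal median was 0.17 without wild-type pool 1 and 0.34 without wild-type pool 2, and the proximal median was -0.24 without wild-type pool 3. The part of position along the jejunum in other genes was not tested beyond the covariate.

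Markers of mature enterocytes were divided in sign. The 8 measured genes of the enterocyte list had 4 above and 4 below 0, with a median of 0.05. Those that separated were all higher: 3 of the 8 (37.5%, against 5.27% of all genes), with 0 separated as lower. Of the 18 measured brush border genes 13 were above 0 and 5 below, from -0.43 to 0.73 with a median of 0.11, and 4 separated as higher (22.2%, against 5.27% of all genes). Beside Mep1a these were the membrane linker Ezr (0.23 ± 0.10), the actin bundler Vil1 (0.16 ± 0.07) and the aminopeptidase Enpep (0.19 ± 0.10). Cdx2, a transcription factor that sets intestinal identity, stood at 9.17, 9.27 and 9.33 against 9.73, 9.62 and 9.73 (0.44 ± 0.16, and 0.63 by a second probe set), and the groups did not overlap. Hnf4a, another factor of enterocyte genes, was higher by 0.33 ± 0.09, with 0.13 to 0.38 by its other 3 probe sets.

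**Figure D3:**
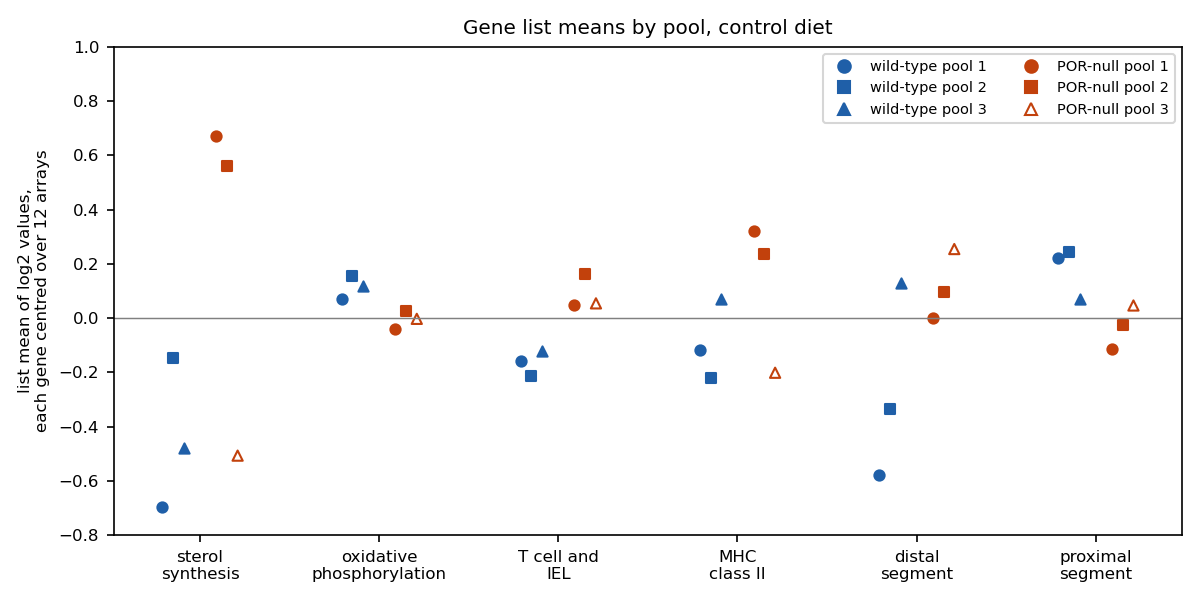
Mean log2 value of 6 gene lists in each of the 6 control-diet pools, each gene centred over the 12 arrays (y axis, log2 units). Blue symbols are wild-type and orange symbols POR-null pools, with pool 3 open; pool 3 lies at -0.51 in sterol synthesis and -0.20 in MHC class II, but with its group in oxidative phosphorylation and T cell genes.

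Cytochrome P450 genes, most of whose enzymes take their electrons from POR, had a median near that of all genes. The 24 measured members were of families 1 to 4 except Cyp27a1 (0.02), and their median was 0.01. At an unadjusted p under 0.05, 1 was higher and 1 lower (4.17% each, near the 3.14% and 3.04% of all genes). Once the segment score was a covariate the median was 0.18. The lower one was Cyp1a1, which oxidises aromatic compounds, at 6.46, 7.16 and 6.96 in wild-type and 6.20, 6.38 and 6.01 in POR-null pools (-0.66 ± 0.15, 1.58-fold lower). The higher one was Cyp4f14, a fatty acid hydroxylase (0.21 ± 0.08). Cyp3a11, a drug-metabolising P450, stood at 12.56, 12.53 and 12.30 against 12.51, 12.37 and 12.30 (-0.07 ± 0.19). Ces1f, a carboxylesterase, stood at 8.64, 8.64 and 8.01 against 7.88, 7.56 and 7.76 (-0.70 ± 0.16).

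Glutathione transferases, which conjugate reactive compounds, were lower in 17 of 19 measured genes, with a median of -0.20. Gstk1, the mitochondrial and peroxisomal form, stood at 8.91, 9.13 and 8.99 against 8.38, 8.54 and 8.59 (-0.51 ± 0.18). Gstm2 differed by -0.50 ± 0.15, Gsta4 by -0.42 ± 0.17 and Gsta3 by -0.27 ± 0.08. The POR-null pools lay wholly below in 3 of the 19 (15.8%, against 4.4% of all genes). With the segment score as a covariate the list median was -0.00. The score was itself higher in every POR-null pool than in every wild-type pool, and its part in the difference was not tested.

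Interferon-response genes were mostly lower, and the list depended on single pools. Oasl2, a member of the oligoadenylate synthetase family, stood at 8.99, 8.74 and 8.70 in wild-type and 8.03, 8.27 and 7.56 in POR-null pools (-0.86 ± 0.16, 1.81-fold lower). Oas2 of the same family (-0.37 ± 0.10) and the virus-tethering protein Bst2 (-0.41 ± 0.11) were lower too, and the guanylate-binding protein Gbp2 was higher by 0.37 ± 0.11. Of the 26 measured, 19 were below 0 with a median of -0.20, and 5 separated as lower (19.2%, against 4.4% of all genes). The median was 0.01 without wild-type pool 1, -0.07 without POR-null pool 3 and -0.02 once the segment score was a covariate.

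In antigen presentation genes of MHC class II, POR-null pool 3 was mostly the lowest of its group. Of the 9 measured, pool 3 was below both other POR-null pools in 6 (66.7%, against 30.3% of all genes) and above both in 2. Set against the wild-type pools, it lay above their range in 1, inside it in 4 and below it in 4. The following 4 genes were picked after their values were seen. H2-Aa, an alpha chain, stood at 11.16, 11.05 and 11.66 in wild-type and 12.23, 11.93 and 10.78 in POR-null pools (0.36 ± 0.34). H2-Ab1 stood at 9.61, 9.43 and 9.81 against 10.26, 10.25 and 9.35 (0.34 ± 0.27), H2-Eb1 differed by 0.21 ± 0.24 and the invariant chain Cd74 by 0.33 ± 0.25. In H2-Aa and H2-Ab1 POR-null pools 1 and 2 were above and pool 3 below all wild-type pools. All 9 measured class II genes lay above 0, with a median of 0.21, and 0 separated (5.27% of all genes separated as higher). The median was 0.44 without POR-null pool 3, 0.08 without POR-null pool 1 and 0.02 once the segment score was a covariate. Macrophage and dendritic genes, a source of class II, had means of -0.01, -0.15 and 0.10 in POR-null pools 1 to 3, and their part was not tested. The genotype median of these genes was 0.01, and -0.14 once the segment score was a covariate.

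**Figure D4:**
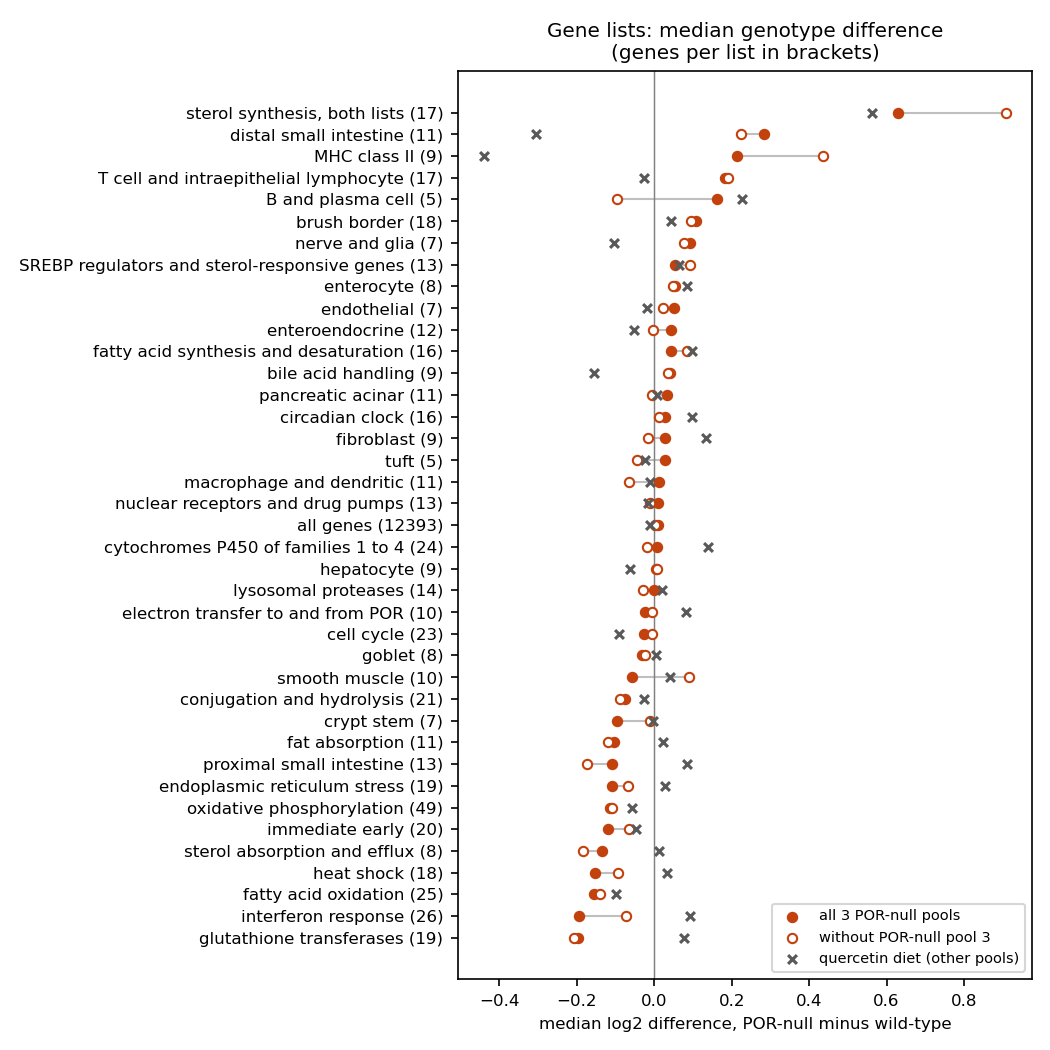
Median log2 difference between POR-null and wild-type mice (x axis) for each gene list with at least 5 measured genes, whose number stands in brackets (both sterol synthesis lists drawn as 1), sorted by the control-diet median. Filled orange points are all 3 POR-null control pools, open points are without POR-null pool 3 and crosses are the quercetin-diet pools; of the lists drawn, sterol synthesis lies farthest right, at 0.63, 0.91 and 0.56.

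The quercetin-diet pools gave the same genotype contrast in other mice, with no array in common. Most genes separated on the control diet did not separate there: of the 653 higher genes 5.97% were again wholly higher and 6.89% wholly lower, against 3.77% and 5.59% of all genes. Of the 545 lower genes 8.07% were again wholly lower and 2.57% wholly higher. Sterol synthesis was the exception in size. On quercetin 15 of its 17 genes separated as higher and 1, Lss, as lower, with a median of 0.56. The other 2 probe sets of Lss were higher there, by 0.47 and 0.41. Cyp51 differed there by 1.74, Hmgcs1 by 1.49, Fdft1 by 1.42 and Sqle by 1.28.

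Over all genes, 39 separated as higher on both diets and 44 as lower. Some of these outside sterol synthesis are given here. Lgmn was higher by 0.78 on the control and 0.75 on the quercetin diet, Prss30 by 0.53 and 0.51, Scd2 by 1.77 and 1.10, Ctsc by 0.44 and 0.30 and Cdx2 by 0.44 and 0.71. All 5 separated on both. Acadl differed by -1.01 and -0.42 and Slc25a20 by -0.26 and -0.42, lower in both cases, and both separated on both diets. Other named genes had quercetin-diet differences near 0 or of the other sign: Mep1a gave 0.11, Oasl2 0.18, Cyp1a1 0.14, Ccl5 -0.25 and Cd3g -0.18. The T cell list had a median of -0.03 there, MHC class II of -0.44, distal genes of -0.31 and glutathione transferases of 0.08. Oxidative phosphorylation kept its direction with a median of -0.06, 11 of 49 above 0 and 8 separated as lower (5.59% of all genes did). Fatty acid oxidation had a median of -0.10, with 8 of 25 separated as lower and 2 as higher. Over all probe sets the genotype difference itself differed between diets at 0 (0%) by limma with Benjamini-Hochberg adjustment and at 1141 (5.04%) at an unadjusted p under 0.05.

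**Figure D5:**
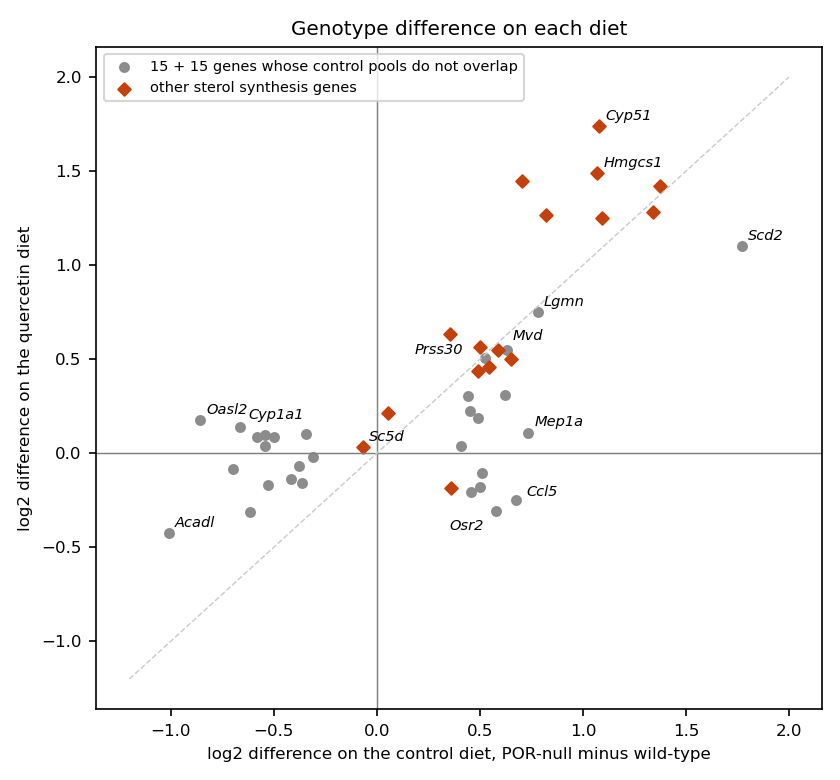
Log2 difference between POR-null and wild-type mice on the control diet (x axis) and on the quercetin diet (y axis) for the 30 named separated genes (grey) and the other sterol synthesis genes (orange diamonds), with a dashed line of equal differences. Most sterol genes lie near the line or above it, whereas Oasl2, Cyp1a1, Mep1a, Ccl5 and Osr2 lie near or across the zero line of the y axis.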

How the data were processed

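RNA of 3 mice per pool was hybridised to Affymetrix 430A arrays, 1 per pool. The values are log2 signals, as deposited by the authors for all 12 arrays in 1 table; MAS5 and RMA are named, with no role or version, per the submitters' processing notes. Array medians and correlations were checked, and values were used as deposited. Of 22690 probe sets, 64 AFFX controls were left out. Gene symbols came from the platform annotation: 20380 probe sets had 1 symbol, 691 several and 1555 none, and 20351 matched RefSeq. Each of 12393 genes was represented by its brightest probe set, avoiding _x_at and _s_at types where another existed. Group means of all 12 arrays were fitted with limma 3.58.1 in R 4.3.3, which gave the standard errors (8 residual and 6.75 prior degrees of freedom), and p-values were adjusted by Benjamini-Hochberg over 22626 probe sets. The fit was tested on simulated data. Groups were called separated where the 3 and 3 pools did not overlap.

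Named were the 15 separated genes per direction with the smallest p, genes called without POR-null pool 3, all sterol synthesis, regulator and electron transfer genes measured, up to 4 genes with the smallest p of each other list with 1 at an unadjusted p under 0.05, the 8 genes per direction farthest from pools 1 and 2 in POR-null pool 3, and a fixed set that includes Cyp3a11 and Fabp6. Members of these groups that are not needed for a comparison were left out. The comparison, lists and rule were chosen with earlier results of these data known. Some list members are not reported here. Alternatives were other normalizations, filters, variance models, covariates, the replicate number as a block and each array left out.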

Additional observations from a re-analysis of the deposited data

Results flagged for a closer look

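In 4 named genes the genotypes separated in opposite directions on the 2 diets. Such reversals were not confined to them. Of all 653 genes separated as higher on the control diet, 6.89% were wholly lower on quercetin, and of the 545 lower genes 2.57% were wholly higher. The p-values given are of the genotype by diet interaction, by limma with Benjamini-Hochberg adjustment, and none passed 0.05. Osr2 was higher in POR-null mice by 0.58 on the control diet and lower on quercetin (-0.31), a difference of 0.88 ± 0.15 (unadjusted p = 3.57e-05, adjusted p = 0.651). Its wild-type pools stood at 7.04 to 7.13 on the control diet and 7.77 to 7.93 on quercetin, whereas the POR-null pools stood at 7.46 to 7.86 and 7.39 to 7.73. Osr2 is of the distal list and so part of the segment score, which was higher in every POR-null pool on the control diet. On quercetin the score was -0.07, 0.55 and 0.79 in wild-type and -0.29, -0.19 and 0.08 in POR-null pools. The part of position along the jejunum in this difference was not tested. Lss gave 0.36 and -0.18, a difference of 0.54 ± 0.14 (adjusted p = 0.935), and is the one sterol synthesis gene that separated in opposite directions. This rests on 1 of its 3 probe sets: the other 2 gave 0.49 and 0.16 on the control diet and 0.47 and 0.41 on quercetin. Bst2 gave -0.41 and 0.34, a difference of -0.75 ± 0.16 (adjusted p = 0.755). Gsta3 gave -0.27 and 0.13, a difference of -0.40 ± 0.11 (adjusted p = 0.956).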

How the results depend on the processing

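The count of probe sets with an adjusted p under 0.05 by limma with Benjamini-Hochberg adjustment was 0 as reported (1379 at an unadjusted p under 0.05) and ran from 0 to 24 when 1 of the 12 arrays was left out. POR-null pool 3 gave the 24, of which 23 were higher, and POR-null pool 2 gave 1, Acadl. With the segment score as a covariate 1 was called, Fhdc1 (-0.99, adjusted p = 0.0468), named after its value was seen. Unadjusted counts ran from 773 to 1817 over the settings, which did not all test the same number. The 773 came with 1 probe set for each of 12393 genes, and 813 with dim probe sets left out, also fewer tested. The 1817 came without wild-type pool 1, over all 22626 probe sets. With the replicate number as a block 0 were called and 1386 had an unadjusted p under 0.05; correlations of same-numbered pools were 0.01, 0.09 and -0.14, so the numbers were not taken as pairs. Separated probe sets, 1166 higher and 970 lower, were 563 and 572 with dim probe sets left out (fewer tested), 2102 and 1936 without POR-null pool 3, 963 and 1201 after median centring and 1223 and 1161 after quantile normalization. The sterol synthesis median was 0.49 to 0.91 over the left-out arrays.

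Of the 102 named genes, 18 of 2234 checks turned the sign and 16 passed the threshold that the reported values did not. With the segment score as a covariate the differences were 0.0060 for Abcg5, 0.046 for Abcg8, 0.16 for Cyb5a, 0.37 for Cyp3a11, -0.078 for Ebp, -1.55 for Fabp6 and -0.14 for H2-Eb1. When 1 array was left out, values ran from -1.06 to 0.12 for Abca1, -0.54 to 0.047 for Abcg5 and -0.42 to 0.058 for Abcg8, with the highest value of each without POR-null pool 1 and the lowest without pool 3 of that genotype. Ebp ran from -0.045 without wild-type pool 1 (-0.018 without POR-null pool 1) to 0.19, Cyb5a from -0.16 to 0.013, Cyb5r3 from -0.082 to 0.24 and Sc5d from -0.27 to 0.25. Abcg8 was at 0.045 without wild-type pool 1. Sc5d gave 0.041 with array weights and 0.0083 as the mean of its probe sets. The cause was not tested. The number of arrays limits the precision.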

Other observations

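Heat shock genes, which encode chaperones and their partners, lay below 0 in 15 of 18 measured, with a median of -0.15. The co-chaperone Bag3 was the 1 member that separated (5.56% as lower, near the 4.4% of all genes). The list means were -0.05, 0.13 and 0.36 in wild-type and -0.09, 0.21 and -0.16 in POR-null pools, so wild-type pool 3 was the highest, and without any 1 array the median ran from -0.26 to -0.01. Endoplasmic reticulum stress genes had a median of -0.11, with 14 of 19 below 0 and 2 separated as lower (10.5%, against 4.4% of all genes). Their direction was not kept in all cases, since the median ran from -0.18 to 0.02 without any 1 array. Cell cycle genes had a median of -0.03 and 0 of 23 separated, and crypt stem cell genes had a median of -0.10 with 0 of 7 separated. Circadian clock genes had a median of 0.03 with 0 of 16 separated and 0 at an unadjusted p under 0.05. Over all genes 5.27% separated as higher and 4.4% as lower, and 3.14% and 3.04% had such a p. These shares are few genes in lists of this size. On the quercetin diet the medians of heat shock and endoplasmic reticulum stress genes were 0.03 and 0.03.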
